A study of Homo sapiens with 19 samples.

Results

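The stretch of human 28S ribosomal RNA (rRNA) from position 3501 to 4100 was followed by RiboMethSeq in 19 libraries of Kasumi-1, a line of human acute myeloid leukaemia cells. It was defined by position alone and holds 600 of the 7000 rRNA positions counted. Of the 120 sites for which the authors gave a methylation score, 20 lie in it, among 71 in 28S as a whole. Position 28S-3606, which is not among the 120 sites, was followed as well.

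The knockdown (KD) libraries were all grown with doxycycline at 100 ng/ml and came in pairs. They were FBL KD without re-expression, FBL KD with an empty vector, FBL KD with wild-type FBL, FBL KD with FBLTri mutant, FBL KD with FBLQua mutant, control KD without re-expression and control KD with an empty vector. Another 5 libraries, without doxycycline, were made from 2 clones lacking SNORD127 (C1 and C34), from clone C1 carrying an empty vector or SNORD127 again, and from 1 control clone. These 5 libraries come from 3 clones, with clone C1 giving 3 of them. The column names carry shFBL1 and shFBL2 for FBL KD without re-expression and shFBL4 for every FBL KD library with a vector, so the hairpin, if these numbers mark one, cannot be told apart from the vector. Titles and column names disagree for the mutants (Dual in the columns of FBLTri, Tri in those of FBLQua), and groups here go by title. The amount of FBL itself was not measured by this assay.

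Fibrillarin, the product of FBL, is the enzyme that methylates rRNA within box C/D particles of the nucleolus. In each of these particles a guide RNA (SNORD) pairs with the rRNA, and the nucleotide facing a fixed point of the duplex is methylated on its ribose. Most human guides are cut out of introns of other genes, many of which encode ribosomal proteins or are non-coding hosts such as GAS5. The methyl group protects the next bond from alkali, so a methylated nucleotide leaves a gap among the fragment ends counted 1 position further on. Score C measures the depth of that gap, with 1 for no ends and 0 for as many ends as in the 6 positions on either side.

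The libraries held 5533150 to 18835537 ends, with a median of 12196305. The range took 7.93% and 7.79% of them in FBL KD without re-expression and 9.36% to 13.2% in the others. At the 20 sites the mean flanking count was 17.3 to 24056.8 with a median of 834.3, which gave a 95% counting interval of ±0.0157 at the median. The widest was ±0.213 at 28S-3764 in FBL KD replicate 1, which had 12 ends at the counted position and a mean flanking count of 32.4. In 7 of 380 pairs of site and library the count was 0, and a floor of 3 counts then allows a score as low as 0.893. Intervals and floors cover counting error only. Control KD with the empty vector, replicate 2, stood apart in having 20.8% of its ends at 1 position, against 2.56% to 4.90% in the other libraries.

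The deposited table names a guide for each of the 20 sites, and 16 of them have 1 guide. All 25 entries were found in RefSeq by name (GRCh38.p14). Host genes are the protein-coding or long non-coding RNA genes whose span holds the guide, and other classes of gene were not searched. SNORD88A, SNORD88B and SNORD88C, named for 28S-3680, lie at chr19:50799029-50802421 with no other gene listed over them. SNORD37 for 28S-3697 lies in EEF2, which encodes a translation elongation factor, and SNORD10 for 28S-3787 lies at chr17:7576811-7576958 in EIF4A1, which encodes a translation initiation helicase. SNORD102 for 28S-4020 lies at chr13:27255064-27255135 in RPL21 and SNORD36C for 28S-3703 in RPL7A, both genes of ribosomal proteins. SNORD46 is the guide named for 28S-3739. SNORD15A, in RPS3, is named for both 28S-3764 and 28S-3771, and SNORD15B of the same gene for 28S-3764 as well.

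Non-coding hosts account for 8 further sites. GAS5 holds SNORD79, SNORD74, SNORD47 and SNORD75, named for 28S-3809, 28S-3820, 28S-3866 and 28S-4032. SNORD87 for 28S-3723 lies at chr8:66922474-66922549 in SNHG6 and within the span of MCMDC2, SNORD30 for 28S-3804 in SNHG1, and SNORD52 for 28S-3904 in SNHG32. ZFAS1 holds SNORD12, SNORD12B and SNORD12C for 28S-3878. SNORD17 for 28S-3797 lies in SNX5, both SNORD92 for 28S-3846 and SNORD53 for 28S-3848 in WDR43, and SNORD111 and SNORD111B for 28S-3923 in SF3B3. Guide RNA levels were not measured by this assay.

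The first question was what loss of FBL did to methylation along the range. Score C was lower in FBL KD than in control KD at all 20 listed sites, averaged over the libraries without re-expression and with the empty vector. Over all 120 sites 71.7% were called lower (limma, Benjamini-Hochberg adjusted p of at most 0.05 over the 120 sites), and in the rest of 28S 39 of 51. No site of the range was called higher, against 1.67% of the 120. The median change was -0.157 in the range, -0.142 in the rest of 28S and -0.085 over all 120 sites. Whether the range differs from the rest of 28S was not tested. The mean score over the 20 sites was 0.821 and 0.842 in FBL KD without re-expression and 0.771 and 0.779 in FBL KD with the empty vector. It was 0.971 and 0.976 in control KD without re-expression and 0.951 and 0.952 in control KD with the empty vector, so the groups did not overlap. Nor did they in the rest of 28S (0.665 to 0.753 in FBL KD, 0.881 to 0.892 in control KD). Over all 120 sites the means were 0.715 to 0.784 and 0.864 to 0.887.

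These counts are on the score as deposited. With the libraries' median scores made equal, which takes out a shift of -0.118 in FBL KD relative to control KD, 10 of the 20 sites were called lower and 6 higher. Only the larger losses keep their direction on that scale, and the 8 sites that turn are 28S-3771, 28S-3797, 28S-3804, 28S-3809, 28S-3820, 28S-3846, 28S-3866 and 28S-4032.

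**Figure D1:**
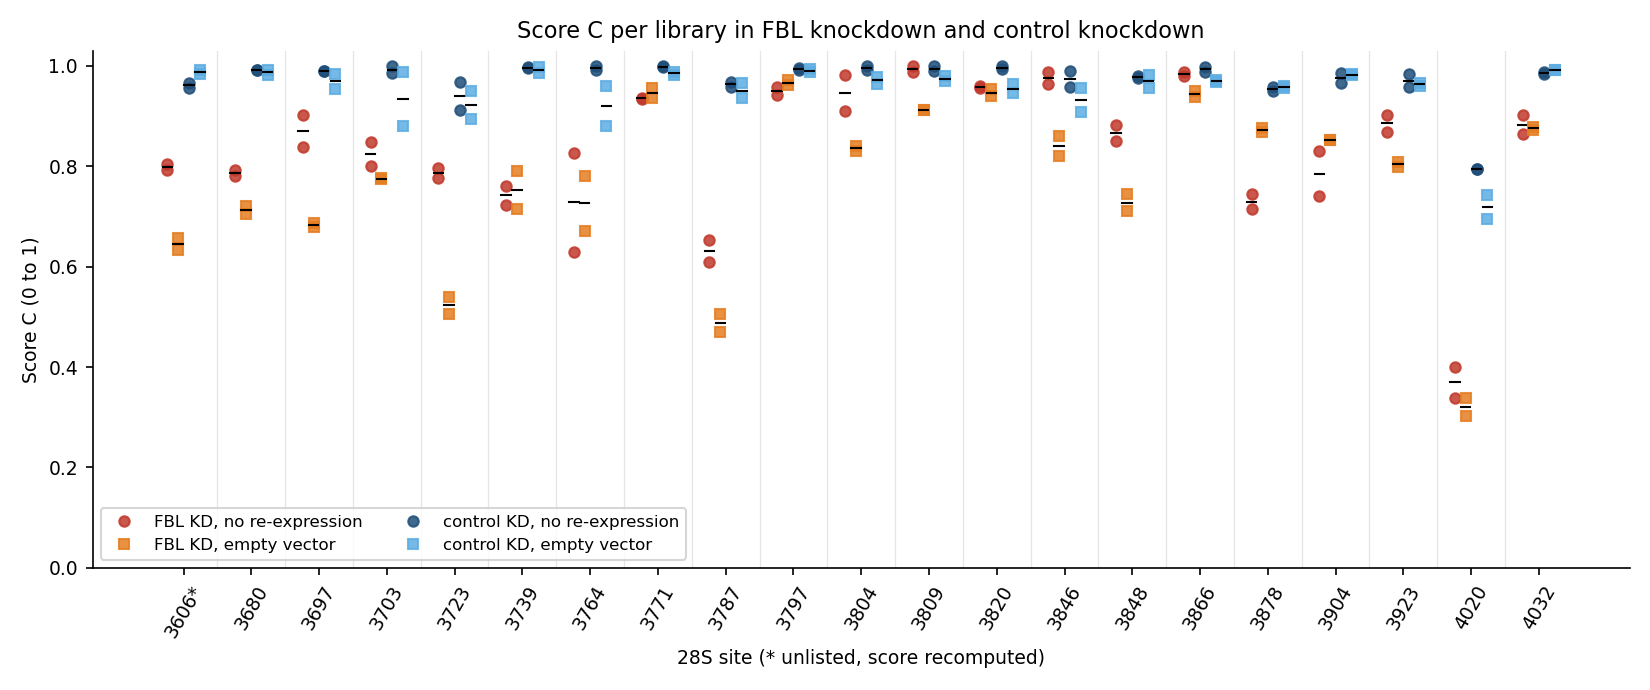
Score C (vertical axis, 0 to 1) of the 20 listed 28S sites and of 28S-3606 (asterisk, recomputed) in each knockdown library without FBL re-expression; points are libraries and dashes the means of 2. FBL KD libraries lie below all 4 control KD libraries at 15 of the 20 listed sites and at 28S-3606, with the lowest scores at 28S-4020, from 0.302 to 0.400.

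The losses ranged from -0.412 to -0.018. At 7 sites the change was below -0.2, at 7 it lay between -0.176 and -0.093, and at 6 it was smaller than 0.06 in size. The 4 FBL KD libraries were all below the 4 control KD libraries at 15 of 20 sites, against 59.2% of all 120 sites. The groups overlapped at 28S-3804, 28S-3809, 28S-3820, 28S-3846 and 28S-3866.

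28S-4020 was the least methylated of the 20 sites in every control library and lost most. Its score was 0.400 and 0.339 in FBL KD without re-expression and 0.338 and 0.302 in FBL KD with the empty vector. In control KD it was 0.795 and 0.795 without re-expression and 0.743 and 0.694 with the empty vector. The change was -0.412 (SE 0.022, adjusted p 2.38e-07), and the lowest control library lay well above the highest FBL KD library.

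28S-3787 stood near full methylation in control KD and fell by almost as much. FBL KD libraries had scores of 0.609 and 0.653 without re-expression and 0.469 and 0.505 with the empty vector, against 0.958 and 0.968, and 0.935 and 0.965, in the matching control KD libraries. The change was -0.398 (SE 0.018, adjusted p 6.48e-08). All FBL KD libraries were below all control KD libraries, and those with the empty vector were lowest.

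28S-3723 showed the same order more strongly. Its score was 0.777 and 0.797 in FBL KD without re-expression and 0.506 and 0.540 in FBL KD with the empty vector. The control KD libraries had 0.911 and 0.968 without re-expression and 0.895 and 0.950 with the empty vector. The change over both backgrounds was -0.276 (SE 0.023, adjusted p 3.86e-06).

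Next in size came 28S-3739 and 28S-3680, both almost fully methylated in control KD. At 28S-3739, FBL KD had 0.723 and 0.761 without re-expression and 0.791 and 0.714 with the empty vector, against 0.998 and 0.995, and 0.986 and 0.998, in control KD. At 28S-3680, FBL KD had 0.781 and 0.792 without re-expression and 0.721 and 0.704 with the empty vector, against 0.992 and 0.992, and 0.992 and 0.982, in control KD. The changes were -0.247 (SE 0.017, adjusted p 1.06e-06) and -0.240 (SE 0.010, adjusted p 5.38e-08). No FBL KD library reached 0.8 at either site.

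Of the sites with the largest losses, 28S-3764 was measured least precisely. FBL KD had 0.630 and 0.826 without re-expression and 0.671 and 0.781 with the empty vector, against 0.992 and 1.000, and 0.880 and 0.960, in control KD. Its replicates lay up to 0.2 apart, and the change was -0.231 (SE 0.044, adjusted p 0.00113).

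28S-3697 and 28S-3848 lost less without re-expression than with the empty vector. At 28S-3697, FBL KD had 0.838 and 0.902 without re-expression and 0.679 and 0.687 with the empty vector, against 0.990 and 0.989, and 0.984 and 0.954, in control KD. At 28S-3848, FBL KD had 0.851 and 0.882 without re-expression and 0.711 and 0.744 with the empty vector, against 0.979 and 0.975, and 0.956 and 0.982, in control KD. The changes were -0.203 (SE 0.020, adjusted p 1.29e-05) and -0.176 (SE 0.013, adjusted p 1.47e-06), with no overlap between the groups at either site.

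The other sites of middle size were 28S-3703 (-0.163), 28S-3904 (-0.160), 28S-3878 (-0.154), 28S-3923 (-0.122), 28S-4032 (-0.109) and 28S-3804 (-0.093), all called lower. At 28S-3703 1 control library stood apart: control KD with the empty vector, replicate 2, had 0.880, against 0.985 to 1.000 in the other 3 control KD libraries. That is the library with 20.8% of its ends at 1 position, and without it the change at 28S-3703 was -0.190 (adjusted p 1.11e-05). Without it 28S-3846 was the 1 site of the 20 no longer called lower. The smallest losses were at 28S-3771 (-0.051), 28S-3846 (-0.045), 28S-3797 (-0.034), 28S-3809 (-0.032), 28S-3820 (-0.024) and 28S-3866 (-0.018). The call at 28S-3846 (adjusted p 0.034) was the weakest, and it was lost, with adjusted p-values of 0.0536 to 0.245, with the compared groups alone, on a logit scale, with flanks of 2 positions and without any 1 of 4 libraries. With library medians made equal it turned to 0.0735 (adjusted p 0.00108).

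In the control clone, which is 1 library, 28S-3723 and 28S-4020 were the 2 sites under 0.9, and both were among the 3 with the largest losses. Its score at 28S-3723 was 0.883, with a counting interval of ±0.0297. In the other SNORD127 libraries 28S-3723 ran from 0.899 to 0.925. Among these libraries 28S-3787 went down to 0.893 and 28S-3764 to 0.887, so the sites under 0.9 depend on the library.

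Where sites lie near each other their flanks share positions. The 5 pairs of sites at most 7 nucleotides apart were compared by the difference of their scores in each library. Flanks also share positions between some sites further apart, which were not compared. The 5 pairs were chosen after the values were seen. SNORD15A is the guide named for both 28S-3764 and 28S-3771, and the first minus the second was -0.214 on average in 4 FBL KD libraries and -0.034 in 4 control KD libraries (exact permutation test, two-sided, p = 0.0286, adjusted over 5 pairs 0.0477). The smallest p this design allows is 0.0286. With libraries exchanged only within each background, an alternative chosen after seeing the data, the exact permutation p was 0.0556, which is the smallest its 36 arrangements allow, so none of the 5 pairs could pass 0.05 by it. The end counts at the 2 counted positions changed by 3.12 (SE 0.62) and 3.29 (SE 0.50) on the log2 scale, both called higher. Flanking counts were 17.3 to 286.0 around 28S-3764 and 76.3 to 1234.0 around 28S-3771.

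For the pair guided by SNORDs of WDR43 the mean difference changed sign, while single control KD libraries ran from -0.048 to 0.012. 28S-3846 minus 28S-3848 was 0.111 in FBL KD and -0.020 in control KD (exact permutation p = 0.0286, adjusted 0.0477; 0.0556 within backgrounds). The position counted for 28S-3848 is inside the flank of 28S-3846. Likewise the position counted for 28S-3809 is inside the flank of 28S-3804, and that for 28S-3703 inside the flank of 28S-3697. For 28S-3804 minus 28S-3809 the values were -0.062 in FBL KD and -0.001 in control KD (exact permutation p = 0.0286, adjusted 0.0477; 0.0556 within backgrounds). For 28S-3697 minus 28S-3703 the exact permutation p was 0.429 (0.444 within backgrounds), and for 28S-3797 minus 28S-3804 it was 0.286 (0.167 within backgrounds).

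The end counts themselves show where the gaps filled. In FBL KD against control KD, 18 of the 574 tested positions of the range had more ends and none had fewer (edgeR quasi-likelihood test, adjusted over 6538 positions). DESeq2 also called 18 higher and 0 lower, and at an unadjusted edgeR p under 0.05 there were 22 with more and 27 with fewer ends. Over all rRNA 1.06% of positions were called higher and 0% lower. Of the 18, 17 were the positions 1 nucleotide after listed sites, out of 20, and the other was 28S-3607, next to the unlisted 28S-3606. Over all rRNA, 68 of 118 positions after listed sites were called higher (57.6%). The median log2 change was 2.87 at the 20 positions after listed sites and -0.017 over the whole range. In the whole rRNA 69 positions were called higher, and 28S-3607 was the 1 among them that did not follow a listed site. Taken by background, the range held 12 positions with more ends without re-expression (0.918% of all) and 11 with the empty vector (0.78% of all). Over all rRNA, 7 of the positions called without re-expression and 1 of those called with the empty vector did not follow a listed site.

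The largest rise was at 28S-3740, the position counted for 28S-3739. It had 65 and 21 ends in FBL KD without re-expression and 184 and 245 in FBL KD with the empty vector, against 1 and 1, and 13 and 1, in control KD. The fitted log2 change was 5.44 (SE 0.41, from the F statistic, adjusted p 6.79e-06). Counts this low in control KD make the fitted value depend on the prior count.

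28S-3681, counted for 28S-3680, held far more ends. There were 489 and 208 in FBL KD without re-expression and 3636 and 5326 with the empty vector, against 62 and 15, and 110 and 211, in control KD; the log2 change was 4.26 (SE 0.35, adjusted p 1.39e-05). Next in size were 28S-3607 (3.56), 28S-3698 (3.40, adjusted p 0.0438) and 28S-3772 (3.29, adjusted p 0.0026). The 3 positions after listed sites that were not called were 28S-3810, 28S-3821 and 28S-3847, with log2 changes of 0.71, 1.31 and 0.67. Without FBL KD replicate 1 the count of positions with more ends fell to 10, and without control KD replicate 2 or control KD with the empty vector replicate 1 it was 48 higher and 1 lower, or 18 higher and 22 lower.

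**Figure D2:**
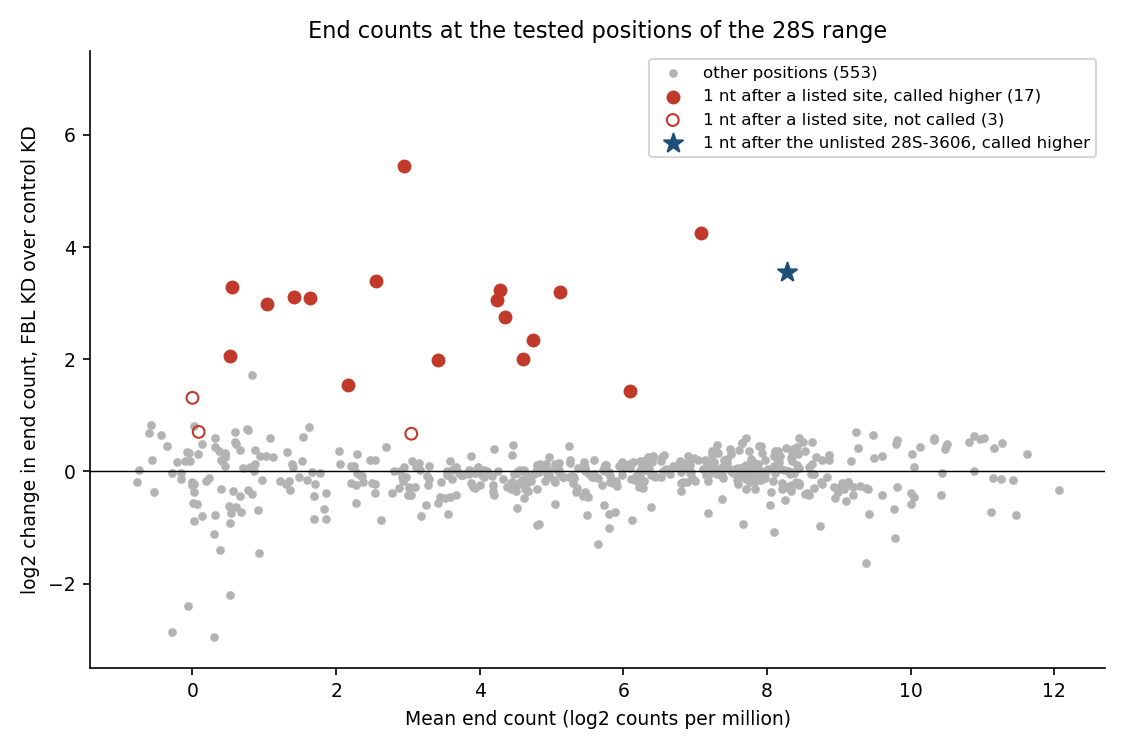
Log2 change in end count, FBL KD over control KD (vertical axis), against mean end count in log2 CPM (horizontal axis) for the 574 tested positions of the range. Red circles are the 20 positions after listed sites (filled, 17 called higher), the star is the position after 28S-3606 and grey points are the other 553.

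28S-3606 has no entry among the 120 sites, and its score was recomputed with the deposited formula. It was 0.805 and 0.792 in FBL KD without re-expression and 0.658 and 0.634 in FBL KD with the empty vector. In control KD it was 0.956 and 0.966 without re-expression and 0.984 and 0.991 with the empty vector, and the 5 SNORD127 libraries had 0.944 to 0.957. FBL KD thus lay below every control KD and SNORD127 library. The position is among the best covered, with mean flanking counts of 5593.1 to 28728.4 and counting intervals of at most ±0.012.

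To set 28S-3606 against other positions, the score was recomputed at every position with a mean flanking count of at least 50 in each knockdown library. Positions with a score of 0 in all of these libraries were left out, and limma was fitted over the remaining 2798 positions. The change at 28S-3606 was -0.252 (SE 0.012, adjusted p 1.09e-06). In that fit 2.18% of positions were called lower and 0.25% higher; the lower ones were 59 of 88 listed sites and 2 of 2710 unlisted positions. Within the range they were 13 of 15 listed sites and 1 of 269 unlisted positions, which was 28S-3606. Without re-expression the unlisted positions called were 28S-3606 and 28S-4019 (-0.170) lower and 28S-3558 (0.087) and 28S-4013 (0.292) higher. With the empty vector they were 28S-3606 lower and 28S-3849 (0.132) higher. Apart from 28S-3606 these were named after their values were seen. The position counted for 28S-3848 gained ends with the empty vector (log2 change 2.70) and is inside the flank of 28S-3849. More ends in a flank raise a score. At 28S-3606, without re-expression the change was -0.163 (adjusted p 0.000492; 1.93% of positions lower and 0.608% higher) and with the empty vector -0.342 (adjusted p 2.91e-06; 1.89% lower). The end count at 28S-3607 was 1745 and 1161 in FBL KD without re-expression and 4850 and 7465 with the empty vector, against 497 and 255, and 236 and 268, in control KD, a log2 change of 3.56 (SE 0.29, adjusted p 1.12e-05).

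A high score alone did not mark a position out. Of 408 unlisted positions of the range with a flanking count of at least 50 in each control KD library, 19 had a score of at least 0.75 in all 4 (4.66%), as did 180 of 3563 in the rest of the rRNA (5.05%). At 18 of these 19 the FBL KD and control KD libraries overlapped, with differences of -0.028 to 0.041, and at 28S-3606 they did not. The 19 were picked by the same control KD scores that enter this comparison, so it is a description and not a test. For the 180 in the rest of the rRNA the overlap was not counted, so no share stands beside it. Ordered by lowest control score, the first of the 19 in the range were 28S-3939 and 28S-3938, where FBL KD averaged 0.960 and 0.984 and control KD 0.971 and 0.982. The next were 28S-3606, 28S-4038, 28S-4037, 28S-4039, 28S-3936, 28S-3684, 28S-3937 and 28S-3683. At 28S-3939 the ends fell away over several positions and stayed low beyond it, whereas at 28S-3606 and 28S-3680 the counted position was lower than the positions immediately before and after it.

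**Figure D3:**
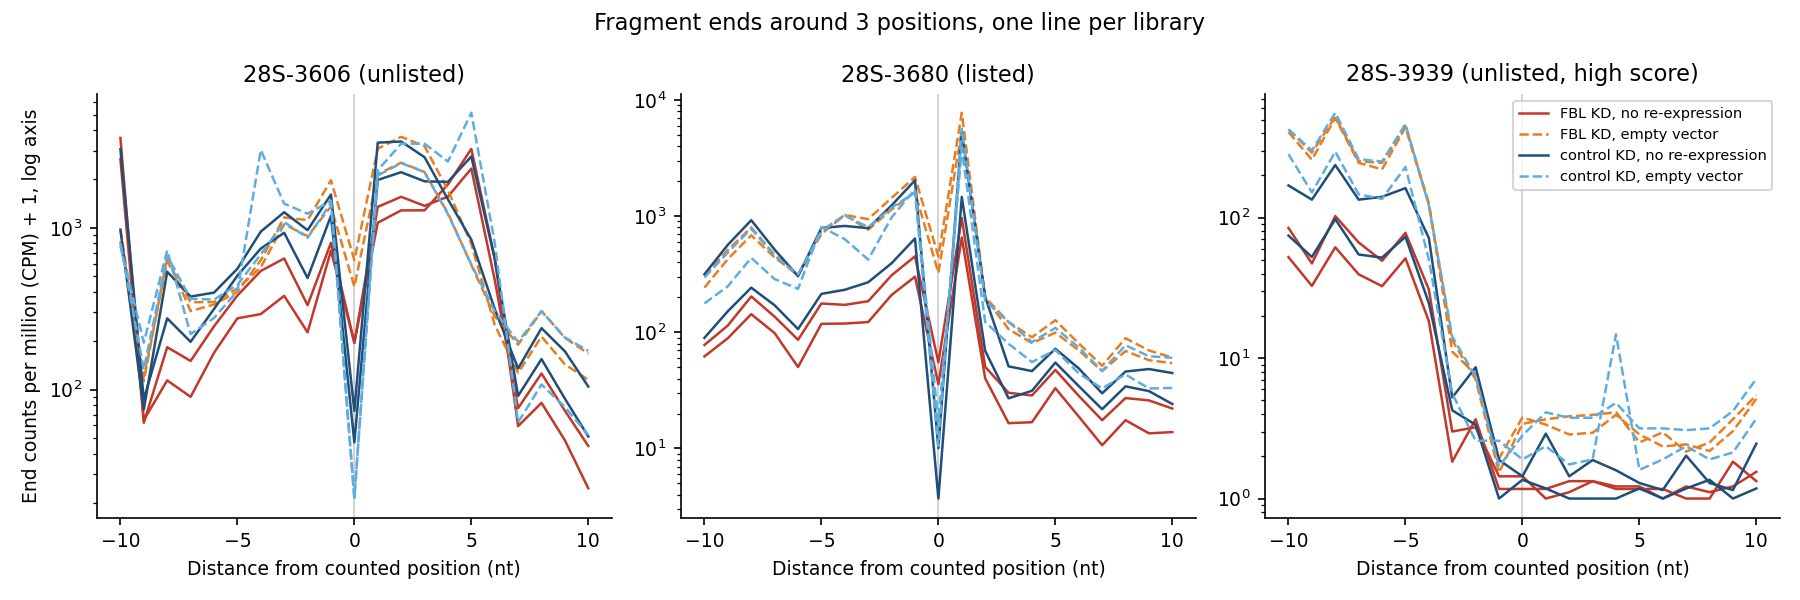
CPM of fragment ends plus 1 (log axis) against the distance in nucleotides from the counted position, 1 line per library of FBL KD and control KD, around the unlisted 28S-3606, the listed 28S-3680 and the unlisted high-score 28S-3939. At the first and second the dip at 0 is shallower in FBL KD; at the third the lines of both groups stay low to the right of 0.

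The 2 backgrounds were then taken apart. Without re-expression, 17 of 20 sites were called lower in FBL KD than in control KD (59.2% of all 120), with 1.67% higher and a median of -0.115; with the empty vector, 19 of 20 were (67.5% of all 120), with median -0.146. Equal library medians gave 7 sites each way without re-expression, and 7 lower with 6 higher with the empty vector. Without re-expression the sites not called were 28S-3809 (-0.000, interval -0.016 to 0.016), 28S-3846 (0.002, -0.051 to 0.054) and 28S-3866 (-0.010, -0.026 to 0.007). With the empty vector it was 28S-3820 (-0.009, -0.027 to 0.009). The value at 28S-3809 without re-expression rests on 1 and 0 ends in FBL KD and 2 and 0 in control KD. The counts of 0 allow scores as low as 0.895 in FBL KD and 0.947 in control KD. The limma interval comes from the spread between libraries and does not take in these counts. The largest changes without re-expression were -0.426 at 28S-4020, -0.332 at 28S-3787 and -0.268 at 28S-3764, the last not called when the compared groups were fitted alone and moving to -0.170 without FBL KD replicate 1 and -0.366 without FBL KD replicate 2. With the empty vector they were -0.463 at 28S-3787, -0.400 at 28S-3723 and -0.399 at 28S-4020.

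The difference between the 2 knockdown effects was itself tested. The effect with the empty vector was the more negative at 8 of 20 sites, where 25% of all 120 were called so, and the less negative at 1, where 5% were. The largest was at 28S-3723, with a difference of -0.248 (SE 0.045, adjusted p 0.00477), followed by 28S-3697 at -0.167 (SE 0.039, adjusted p 0.0168). 28S-3878 went the other way, by 0.139 (SE 0.021, adjusted p 0.00221). At 28S-3878 FBL KD had 0.744 and 0.714 without re-expression and 0.877 and 0.869 with the empty vector, against 0.957 and 0.949, and 0.960 and 0.956, in control KD. At 28S-3606 the difference was -0.179 (adjusted p 0.0394 over 2798 positions; 0.286% lower), but the call was lost under 6 alternatives. With flanks of 2 positions the difference was -0.0611 (adjusted p 0.369). The adjusted p was 0.0873 without the variance trend, 0.0648 with scores not set to 0, 0.0655 with the replicate block, and 0.105 and 0.163 without either FBL KD library with the empty vector. On a logit scale 3 listed sites were called, among them 28S-3878 but neither 28S-3723 nor 28S-3697, and with library medians made equal 3 lower and 4 higher. The 9 calls became 5 without either control KD library without re-expression or without control KD with the empty vector replicate 2, and the call at 28S-3697 was lost without control KD replicate 2. The share of ends in the range was 7.93% and 7.79% in FBL KD without re-expression against 12.4% and 12.9% with the empty vector. In control KD it was 11.9% and 9.36% against 12.7% and 12.1%. Libraries held 5533150 to 9021579 ends without re-expression and 11232162 to 13278107 with the empty vector. This share, the depth and the number after shFBL in the column names all go with the background. The part of any of them in the difference was not tested.

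**Figure D4:**
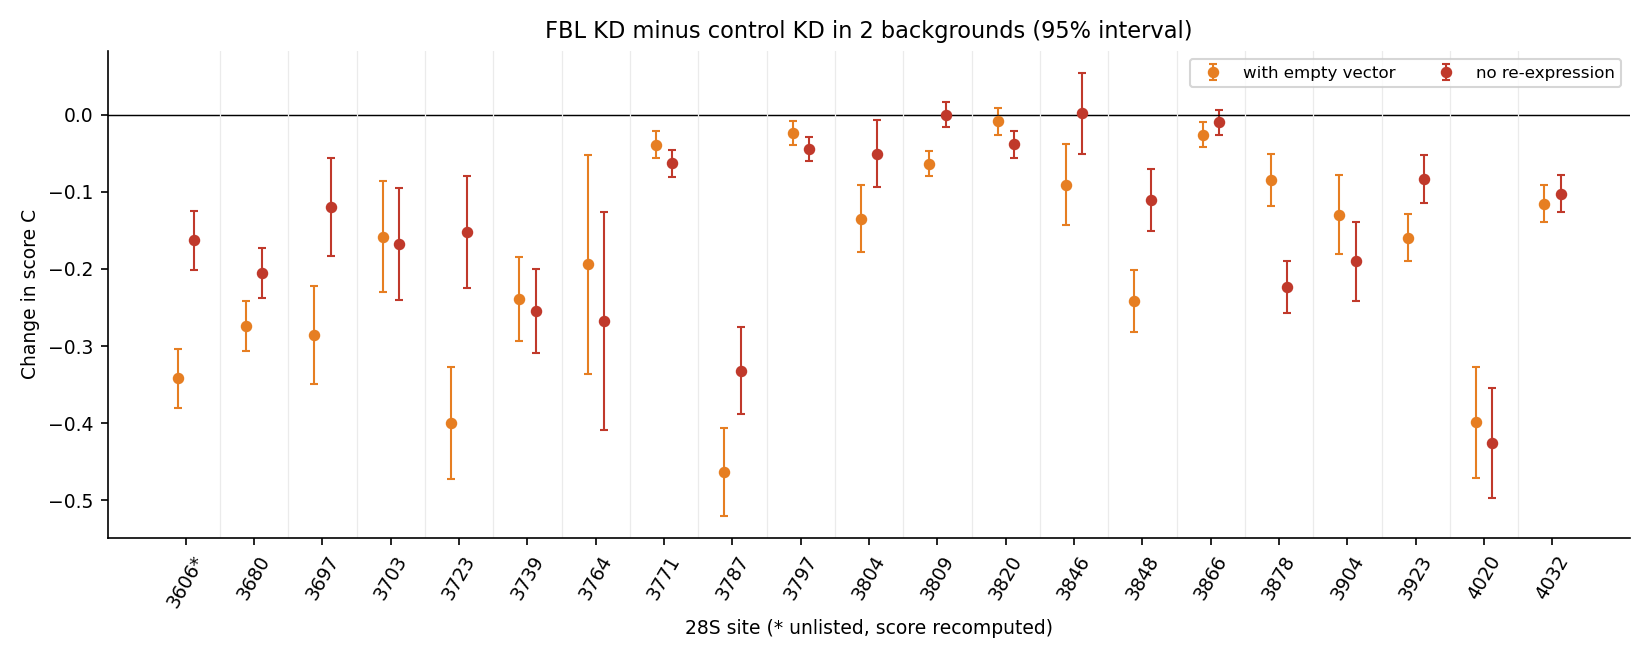
Change in score C, FBL KD minus control KD (vertical axis), with the empty vector and without re-expression at each site; bars are 95% intervals from limma. The effects lie furthest apart at 28S-3723 (-0.400 with the empty vector and -0.152 without re-expression), and at 28S-3878 the order is turned (-0.085 and -0.224).

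Putting back wild-type or mutant FBL asks how far the scores return. Wild-type FBL gave higher scores than the empty vector at 17 of 20 sites (57.5% of all 120 were higher), with a median change of 0.10 over the 20; with library medians made equal 5 were higher and 5 lower. Not called were 28S-3764 (0.148, interval 0.006 to 0.289, adjusted p 0.0704), 28S-3846 (0.031, -0.021 to 0.084) and 28S-3866 (0.007, -0.009 to 0.024). FBLTri and FBLQua gave fewer changes against the same empty-vector libraries, which these 3 comparisons and the empty-vector knockdown comparison share.

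The largest gain was at 28S-3787. Its score was 0.776 and 0.796 with wild-type FBL, 0.526 and 0.523 with FBLTri and 0.493 and 0.548 with FBLQua, against 0.469 and 0.505 with the empty vector. Wild-type FBL exceeded the empty vector by 0.299 (SE 0.025, adjusted p 1.22e-05). Both mutants overlapped or nearly met the empty-vector libraries.

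At 28S-3697 wild-type FBL had 0.918 and 0.910, FBLTri 0.739 and 0.813 and FBLQua 0.760 and 0.719, against 0.679 and 0.687 with the empty vector. At 28S-3680 the scores were 0.939 and 0.940 with wild-type FBL, 0.793 and 0.771 with FBLTri and 0.732 and 0.773 with FBLQua, against 0.721 and 0.704 with the empty vector. Wild-type FBL was higher by 0.232 (SE 0.028, adjusted p 0.000102) and by 0.227 (SE 0.014, adjusted p 2.75e-06). At both sites the mutants lay between.

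Set against control KD with the empty vector, wild-type FBL stayed lower at 6 of 20 sites (29.2% of all 120 were lower); with library medians made equal 4 were lower and 5 higher, and on a logit scale 12 were called. At 28S-3723 wild-type FBL had 0.625 and 0.647, against 0.895 and 0.950 in control KD with the empty vector, a change of -0.286 (SE 0.032, adjusted p 0.000398). At 28S-4020 it had 0.519 and 0.480 against 0.743 and 0.694, a change of -0.219 (SE 0.031, adjusted p 0.00107), not called with the compared groups alone. At 28S-3787 the change was -0.164 (SE 0.025, adjusted p 0.0013). The others were 28S-3848 (-0.099), 28S-3923 (-0.083) and 28S-3680 (-0.048). 3 of the 6 are the sites with the largest losses in FBL KD.

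At 13 sites the loss with the empty vector was at least 0.1, and the gain on re-expression was expressed as a percentage of it. The same empty-vector libraries enter both, so these are descriptions. Wild-type FBL gave a median of 76.1%, with the lowest at 28S-3723 (28.4%) and the highest at 28S-3703 (100.7%), and over 50% at 10 of 13. FBLTri gave a median of 14.6% (-26.5% to 72.6%) and FBLQua of 14.1% (-8.1% to 62.7%). 28S-3703 was the 1 site where either mutant passed 50%, and 1 of the control libraries behind its loss stands apart there. Without that library, control KD with the empty vector replicate 2, an alternative chosen after seeing the data, the medians were 75.0%, 13.8% and 14.2% for wild-type FBL, FBLTri and FBLQua. 28S-3703 then gave 75.0% for wild-type FBL, 54.1% for FBLTri and 46.7% for FBLQua, and the highest share for wild-type FBL was 96.1% at 28S-3764.

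**Figure D5:**
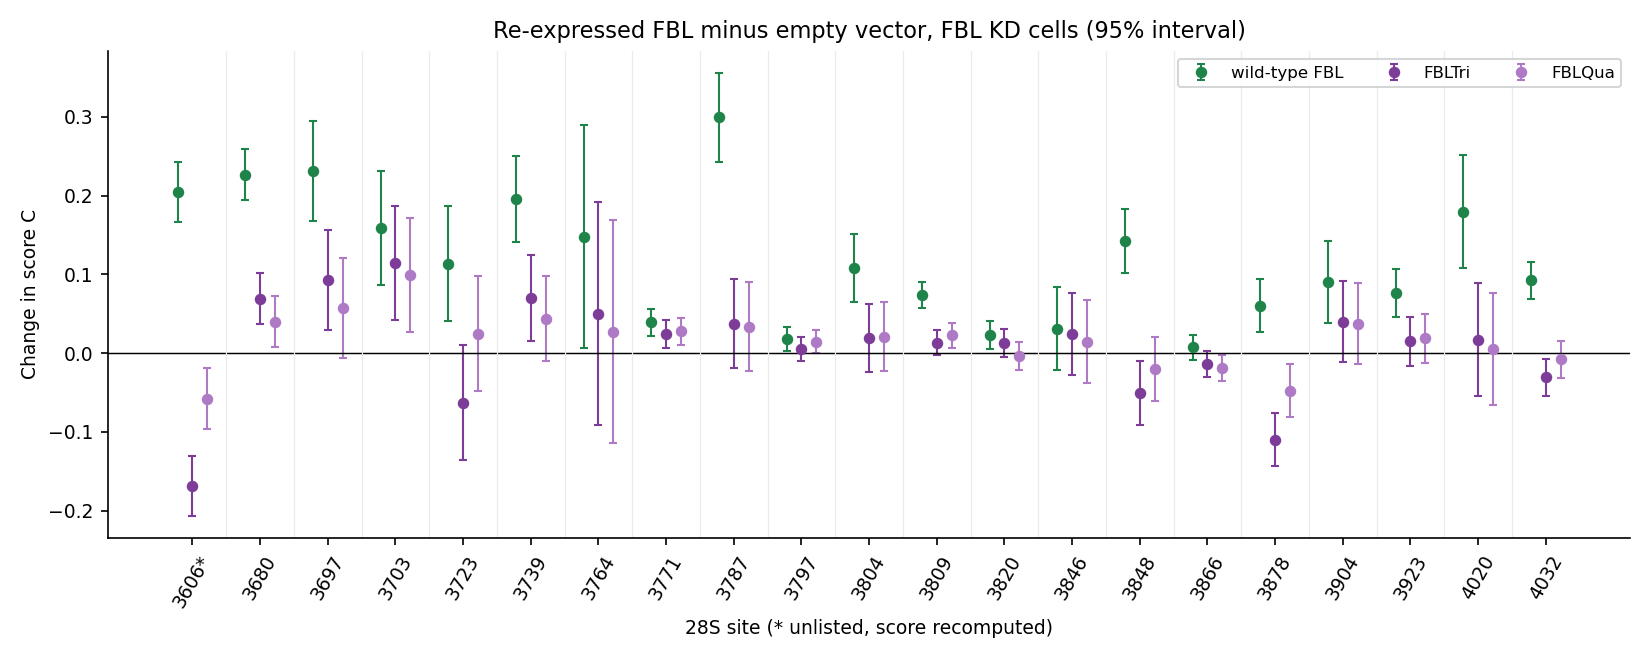
Change in score C against the empty vector in FBL KD cells (vertical axis) with wild-type FBL, FBLTri and FBLQua at each site; bars are 95% intervals from limma. On the scores as deposited the wild-type FBL estimates are above 0 at every site shown, most at 28S-3787 (0.299), while FBLTri lies furthest below 0 at 28S-3606 (-0.168) and 28S-3878 (-0.110).

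Compared with wild-type FBL, FBLTri was lower at 13 of 20 sites (62.5% of all 120) and FBLQua at 14 (59.2% of all 120), with medians of -0.093 and -0.088. Equal library medians left 4 sites lower for each mutant, with 6 sites higher for FBLTri and 7 for FBLQua. The largest differences of FBLTri were -0.262 at 28S-3787 (SE 0.025, adjusted p 2.29e-05), -0.193 at 28S-3848 (SE 0.018, adjusted p 1.99e-05) and -0.176 at 28S-3723 (SE 0.032, adjusted p 0.00127), the last not called on a logit scale or with equal medians. At 28S-3848 FBLTri had 0.670 and 0.684 against 0.861 and 0.880 with wild-type FBL, and at 28S-3723 0.422 and 0.498 against 0.625 and 0.647. The largest of FBLQua were -0.265 at 28S-3787 (SE 0.025, adjusted p 2.41e-05), -0.187 at 28S-3680 (SE 0.014, adjusted p 7.6e-06) and -0.175 at 28S-3697 (SE 0.028, adjusted p 0.000579).

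Against the empty vector FBLTri was higher at 5 of 20 sites (16.7% of all 120) and lower at 2 (20%), 28S-3878 and 28S-4032. These 7 calls became 3 without any 1 of the 4 libraries, 4 with the replicate block and 1 on a logit scale. The largest were 28S-3703 at 0.115 (SE 0.032, adjusted p 0.024), 28S-3878 at -0.110 (SE 0.015, adjusted p 0.000447) and 28S-3697 at 0.093 (SE 0.028, adjusted p 0.0325). At 28S-3703 FBLTri had 0.902 and 0.879 against 0.777 and 0.774 with the empty vector, and at 28S-3878 it had 0.773 and 0.754 against 0.877 and 0.869. The calls at 28S-3703 and 28S-3697 were lost on a logit scale, and the second with the compared groups alone (limma, adjusted p 0.138). They were also lost without either empty-vector library, the first without either FBLTri library and the second without FBLTri replicate 2.

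FBLQua was called higher than the empty vector at 1 of 20 sites (7.5% of all 120), 28S-3771, where it had 0.970 and 0.977 against 0.936 and 0.955 (change 0.028, SE 0.008, adjusted p 0.0357). That call was lost under several alternatives. FBLQua was lower at 0 sites (11.7% of all 120), and 6 of the 20 had an unadjusted p under 0.05 in either direction. The 2 mutants were not tested against each other.

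28S-3606 scored higher with wild-type FBL than with the empty vector or either mutant. Its score was 0.847 and 0.853 with wild-type FBL, 0.479 and 0.476 with FBLTri and 0.572 and 0.604 with FBLQua, against 0.658 and 0.634 with the empty vector. Wild-type FBL was higher than the empty vector by 0.204 (SE 0.017, adjusted p 0.00015; 1.39% of the 2798 positions were higher). FBLTri and FBLQua were lower than wild-type FBL by -0.373 (adjusted p 3.29e-06; 1.43% lower) and -0.262 (adjusted p 4.27e-05; 1.5% lower). FBLTri was also lower than the empty vector, by -0.168 (adjusted p 0.00118; 0.393% lower), a call lost on a logit scale. FBLQua differed from it by -0.058 (interval -0.096 to -0.019), which was not called.

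Against control KD with the empty vector, wild-type FBL was lower at 28S-3606 by -0.137 (limma, adjusted p 0.0152, with 0.214% lower). That call was lost without the variance trend (adjusted p 0.0733) and without either wild-type FBL library. The ends at 28S-3607 numbered 3024 and 2563 with wild-type FBL, 8984 and 9359 with FBLTri and 7973 and 7370 with FBLQua, against 4850 and 7465 with the empty vector. In the end-count test the change of FBLTri against the empty vector at 28S-3607 was 0.45 on the log2 scale and not called.

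In end counts, wild-type FBL against the empty vector gave fewer ends at 2 positions of the range (0.138% of all 6538 positions), both after listed sites. At 28S-3740 the log2 change was -2.26 (SE 0.36, adjusted p 0.0305), with 36 and 63 ends with wild-type FBL against 184 and 245 with the empty vector. At 28S-4033 it was -1.96 (SE 0.30, adjusted p 0.0257), with 132 and 110 against 384 and 486. Leaving out any 1 of the 4 libraries left 0 positions called by edgeR, and DESeq2 called 6. At 28S-3607 the change of -1.26 was not called. Against wild-type FBL, FBLTri had more ends at 5 positions of the range (0.352% of all 6538) and FBLQua at 1 (0.0765%).

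Loss of SNORD127, the guide of a site outside the range, tests whether removing another guide moves these sites. The mean of clones C1, C34 and C1 with the empty vector was set against the mean of the control clone and C1 with SNORD127, so clone C1 is on both sides. None of the 20 sites was called (limma; 0.833% of all 120 lower and 0% higher), and 0 had an unadjusted p under 0.05. The changes ran from -0.017 at 28S-3804 (interval -0.054 to 0.019) to 0.015 at 28S-3697 (-0.039 to 0.069). The widest interval, at 28S-3764, was -0.122 to 0.121, so a change of that size could not have been seen there. The fit takes lone libraries to vary like the paired groups, and the control clone is one by its title only, its column being named like the knockout clones.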

How the data were processed

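Per the labels' protocols, small RNA libraries were made from 100 ng of total RNA after alkaline treatment (12 min, 95 °C) had cut it into pieces near 30 nucleotides. Per the submitters' processing notes cutadapt and Bowtie2 were among the tools; their versions and the rRNA reference were not given in the sources used here. Whole-number end counts, not normalized, were deposited by the authors for 7000 rRNA positions. The authors also deposited score C, a fraction from 0 to 1, for 120 sites with their guides. It is 1 minus the count 1 position after the site divided by the mean of 2 flank means (6 positions each, weights 1 to 0.5), and negative values are set to 0; this gave the deposited value in 2280 of 2280 pairs within 1e-09. The score is a ratio within a library, so depth mainly sets its precision, and a methylated neighbour inside the flank changes it.

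Score changes were tested with limma 3.58.1 (R 4.3.3; a coefficient per group, variance trend, two-sided, Benjamini-Hochberg over 120 sites at 0.05) on the 14 knockdown libraries, whose 7 groups share a spread, and on all 19 for SNORD127. End counts were tested with edgeR 4.0.16 (quasi-likelihood, TMM, filterByExpr, 6538 positions), with DESeq2 1.42.0 as an alternative. The fit over 2798 positions and the neighbouring pairs were added after seeing the data. Scripts were tested on simulated data. Python 3.11.15, numpy 2.4.6, pandas 2.3.3, scipy 1.17.1 and matplotlib 3.10.9 were used.

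Values per library are given for 8 sites in FBL KD against control KD and 3 in each other comparison, those of largest size among the calls, and for 28S-3606. Values singled out beyond these were chosen after they were seen. The members and lists were chosen with earlier results of these data known. The labels do not tell whether replicates were separate cultures, and p-values therefore cover a spread that may be technical; chi-square per position was at least 17.9, so no pair agreed within sampling noise. No sequence of the 28S rRNA was used here. The host gene of 1 guide is not reported here.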

Additional observations from a re-analysis of the deposited data

Results flagged for a closer look

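The effect of FBL KD (against control KD) differed between the backgrounds at 9 of the 20 sites by the test of the difference, effect with the empty vector minus effect without re-expression (limma, adjusted over 120 sites). The differences were -0.248 at 28S-3723, -0.167 at 28S-3697, -0.131 at 28S-3787, -0.131 at 28S-3848, -0.084 at 28S-3804, -0.076 at 28S-3923, -0.069 at 28S-3680, -0.063 at 28S-3809 and 0.139 at 28S-3878. The adjusted p-values ran from 0.00221 at 28S-3878 to 0.0449 at 28S-3804. At 28S-3809 the effect without re-expression rests on 0 to 2 ends per library at the counted position. The background goes together with depth and with the number after shFBL in the column names, so these cannot be told apart. The labels do not tell whether that number marks a hairpin.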

How the results depend on the processing

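The 20 losses in FBL KD against control KD numbered 19 or 20 under the alternatives other than equal library medians (16 called: 10 lower, 6 higher). With equal medians the change turned to 0.0669 at 28S-3771, 0.0839 at 28S-3797, 0.0254 at 28S-3804, 0.0862 at 28S-3809, 0.0945 at 28S-3820, 0.0735 at 28S-3846, 0.1004 at 28S-3866 and 0.0092 at 28S-4032; the alternative's construction removes the shift of the medians. It left 10 sites called for wild-type FBL against the empty vector, 4 for FBLTri and 2 for FBLQua. On a logit scale 3 sites were called for the difference between backgrounds, 12 for wild-type FBL against control KD, 1 for FBLTri and 0 for FBLQua against the empty vector (9, 6, 7 and 1 as reported). For FBLTri against the empty vector, 4 were called without the variance trend. For FBLQua, 0 were called with the compared groups alone and 3 with the 10% of sites of lowest flanking counts left out. The cause was not tested. In end counts for wild-type FBL against the empty vector, 4 positions were called with the compared groups alone and 6 by DESeq2, against 2.

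Deviations of libraries with the same replicate number had a correlation over 0.1 in 12 of 21 pairs of groups (-0.226 to 0.694, median 0.159). Whether equal replicate numbers mark a shared batch was not tested. The replicate block gave 20 calls for FBL KD and 9 for the difference between backgrounds, as without it, 4 for FBLTri against the empty vector, and 18 positions in end counts.

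Leaving out 1 replicate at a time gave 19 to 20 sites for FBL KD, 5 to 11 for the difference between backgrounds (5 without either control KD library or control KD with the empty vector replicate 2), 3 to 3 for FBLTri against the empty vector and 1 to 2 for FBLQua (2 without FBLQua replicate 2). In end counts it gave 10 to 49 positions for FBL KD, of which 9 to 17 lay after listed sites, and 0 to 0 for wild-type FBL. 28S-3607 had a log2 change of 3.36 to 3.82. Depth limits 28S-3764, 28S-3820 and 28S-3809 most, with mean flanking counts down to 17.3, 24.8 and 28.5.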
